A study of Mus musculus with 6 samples.

Results

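The genes described here encode the subunits of the mitochondrial respiratory chain and ATP synthase. They were chosen by symbol: the mitochondria-encoded genes (symbols that start with mt-), the nuclear subunits of complex I (Ndufa, Ndufb, Ndufc, Ndufs and Ndufv, without the Ndufaf assembly factors), Sdha to Sdhd of complex II, Uqcr genes of complex III, Cox4 to Cox8 genes of complex IV and Atp5 genes of complex V. The rule found 99 of the 32287 features of the gene matrix. Of these, 13 are encoded by mitochondrial DNA and 86 by nuclear genes, with 37 in complex I, 4 in complex II, 8 in complex III, 20 in complex IV (with Ndufa4 and Ndufa4l2, which belong to cytochrome oxidase despite their names) and 17 in complex V. All 13 mitochondria-encoded and 81 nuclear members passed the filter on low counts, and Cox7a1, Cox7b2, Cox8b, Cox8c and Ndufa4l2 did not.

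The data were single-cell transcriptomes with surface antibody and hashtag counts (CITE-seq) from the inguinal lymph nodes of CD169Tom mice. In these animals Cre recombinase made from the Cd169 locus switches on the red reporter tdTomato (TOM), so that cells which once expressed CD169, a macrophage lectin, and their descendants stay labelled. All 4 mice were Cd169Cre/+.Tdtomatofl/fl, 2 of them were unimmunized and 2 had received hen egg lysozyme 9 days earlier. The study's general protocol gave lysozyme conjugated to an ovalbumin peptide, in adjuvant, after transfer of B and T cells specific for them. Its account of the sequenced mice names neither antigen, adjuvant nor cell transfer. CD11b hi TOM+ cells were sorted, pooled after hashtagging and run in 2 captures, and the reporter also stays on in labelled cells that no longer make CD169. The age and sex of the individual mice are not given in the sources used here.

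Barcodes were placed in 17 gates by marker genes, and UMI counts (unique molecules counted near the 3′ end of each transcript) were summed for each mouse and gate into 56 libraries of at least 10 barcodes. Of 12139 barcodes assigned to 1 mouse and kept, 6275 met exactly 1 gate, 1346 met several and 4518 met none. Library totals ran from 21127 to 10320061 UMIs. Unimmunized mouse 2 gave 537 of the kept barcodes, against 2828, 4052 and 4722 in unimmunized mouse 1 and immunized mice 1 and 2. Levels are given as UMIs per 1000000 UMIs of the library (CPM) or as a percentage of all UMIs, and fewer transcripts in a cell cannot be told apart from a larger total of other transcripts. B, T and NK cell gates were filled although CD11b hi cells were sorted.

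Complexes I, III and IV pump protons across the inner mitochondrial membrane as electrons pass from NADH and succinate to oxygen, complex II feeds electrons in from succinate, and complex V (ATP synthase) uses the gradient to make ATP. Complexes I, III, IV and V are built from subunits of both genomes, whereas all subunits of complex II are nuclear. Macrophages are known to shift between oxidative phosphorylation and glycolysis with their activation state, and medullary sinus macrophages (MSMs) line the sinuses that drain lymph from the node.

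The mitochondria-encoded genes lie close together on the small circular genome, and several overlap, which bears on how their UMIs can be read. In the sequences below, from the GRCm38 mitochondrial genome and written along its + strand, capitals mark the bases shared by neighbouring genes.

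mt-Atp8 and mt-Atp6, shared bases MT 7927 to 7969: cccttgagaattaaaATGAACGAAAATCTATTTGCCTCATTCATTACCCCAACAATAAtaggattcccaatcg
mt-Nd4l and mt-Nd4, shared bases MT 10167 to 10173: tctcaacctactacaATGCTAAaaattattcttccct
mt-Nd5 and mt-Nd6, shared bases MT 13552 to 13565: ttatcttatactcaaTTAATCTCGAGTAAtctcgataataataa

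The first pair shares 43 bases, the second 7 and the third 14. mt-Atp8 and mt-Atp6 lie on the same strand, as do mt-Nd4l and mt-Nd4, and each of these pairs is carried by a single transcript, so UMIs within a pair cannot be assigned to one gene with certainty. mt-Nd5 and mt-Nd6 lie on opposite strands.

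Over the 56 libraries the mitochondria-encoded UMIs came mostly from the same few genes, with shares that varied. mt-Atp6 (ATP synthase subunit a) held a median of 22.03% of these UMIs, with a range of 18.6 to 26.75%. The cytochrome oxidase core subunits followed, with medians of 20.2% for mt-Co3, 17.5% for mt-Co1 and 16.4% for mt-Co2. The share of mt-Co1 ranged from 12.09 to 22.25%. mt-Cytb, the mitochondria-encoded subunit of complex III, held 8.06%, and of the complex I subunits mt-Nd4 (5.37%), mt-Nd2 (4.00%) and mt-Nd1 (3.45%) were the most frequent. At the low end mt-Nd4l held 0.388%, mt-Atp8 0.095% and mt-Nd6 0.059%. mt-Nd4l and mt-Atp8 thus stood far below mt-Nd4 and mt-Atp6, with which they share a transcript.

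The gates differed in transcripts of both genomes. Among the 14 gates with libraries in both conditions, which leaves out TBM-like cells, inflammatory macrophages and neutrophil-like cells, 13 of 13 mitochondria-encoded and 76 of 81 nuclear members differed at an adjusted p under 0.05 (edgeR quasi-likelihood F test), against 76.6% of the 10357 genes tested. Among the nuclear members that did not pass were Ndufs1, Sdha, Atp5b and Atp5d. The counts describe a table in which most genes differ between gates, and the levels are therefore given next.

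B and T cells had the highest mitochondria-encoded shares, and NK cells did not share this, at 3.23 to 3.37%. In B cells the share was 6.20% ± 0.372 (SD, n = 4 mice) of UMIs, in gamma-delta T cells 5.14% ± 0.321 and in alpha-beta T cells 5.08% ± 0.139. Over the 49 libraries outside the MSM gates the share ran from 1.73% in neutrophil-like cells, with 1 library of 14 barcodes, to 6.64% in B cells of immunized mouse 1, with a median of 3.61%. B cells lay above all other gates, and the ranges of the T cell gates, 4.70 to 5.47% and 4.89 to 5.22%, overlapped each other. Outside the MSM gates (medullary sinus macrophages, described next), tingible body macrophage-like (TBM-like) cells came next at 4.46 and 4.47% in the 2 immunized mice. These were the only mice with at least 10 such barcodes. The gate is named after the macrophages that engulf dying B cells in germinal centres. It rests on marker genes, and neither position nor engulfment was measured in these barcodes.

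The nuclear-encoded share followed a different order. Outside the MSM gates it ran from 1.37% in neutrophil-like cells to 3.11% in classical monocytes of immunized mouse 2, with a median of 2.28%. Inflammatory macrophages held 2.84 and 3.03% in the 2 immunized mice, C1q-high macrophages 2.81% ± 0.225 (n = 4), and B cells 2.05% ± 0.150 (n = 4). The ratio of mitochondria-encoded to nuclear-encoded UMIs was therefore highest in B cells, at 2.60 to 3.30, followed by alpha-beta T cells at 2.31 to 2.60 and gamma-delta T cells at 2.19 to 2.39. Most myeloid gates lay between 1 and 2.

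**Figure D1:**
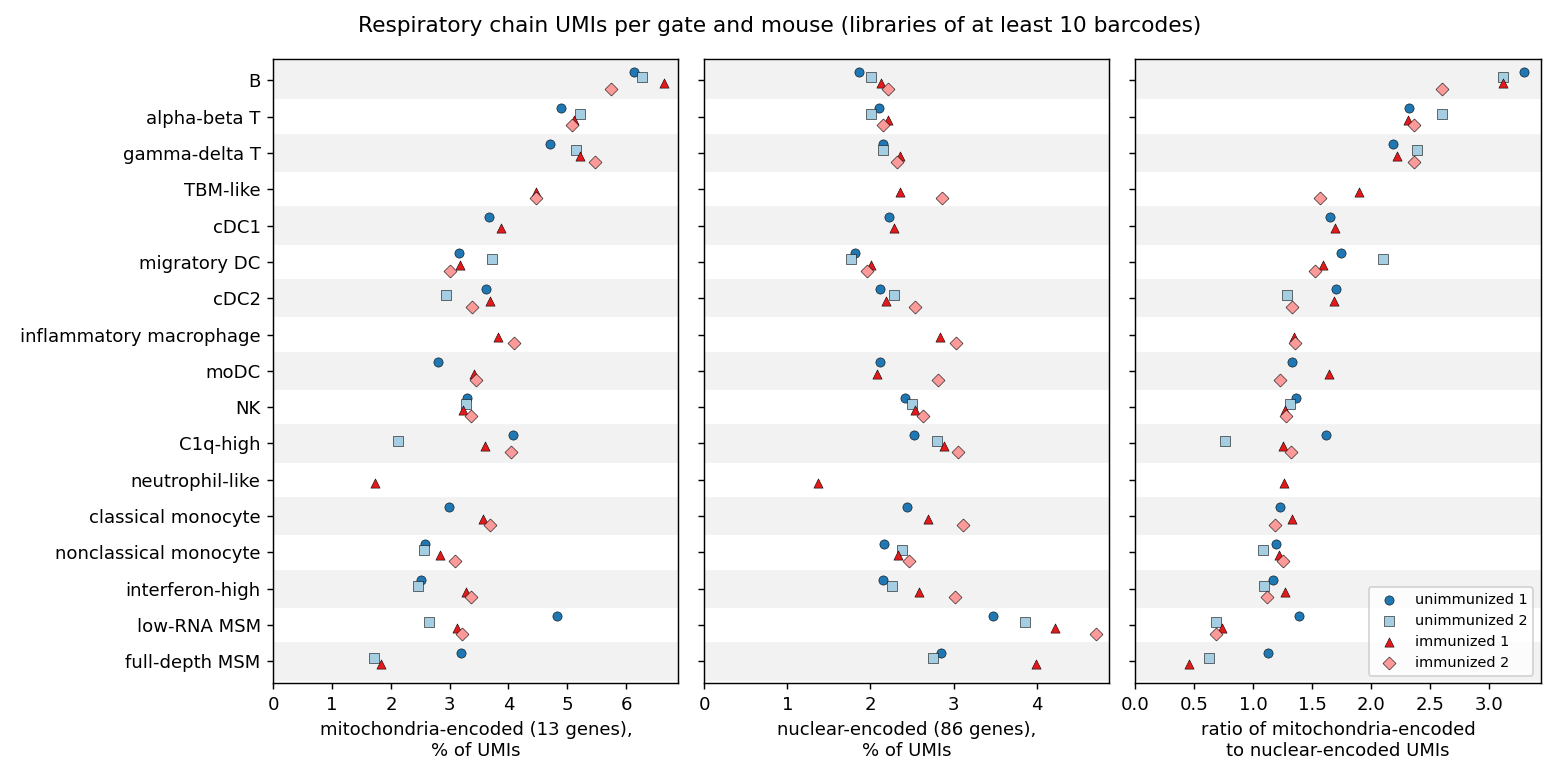
Mitochondria-encoded UMIs (left) and nuclear-encoded respiratory chain UMIs (middle), each as a percentage of all UMIs, and their ratio (right), with 1 point per mouse and gate of at least 10 barcodes and gates in the order of their median ratio. B cells have the highest ratio (2.60 to 3.30), and low-RNA MSM-like cells have nuclear-encoded shares of 3.47 to 4.71%, above the 3.11% that is the highest outside the MSM gates.

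MSM-like barcodes needed UMIs of at least 2 of Marco, Cd209b, Cd209f, Cd209g, Timd4, Vsig4 and Cd5l, with Marco (a scavenger receptor) or Cd209b (a lectin) among them, and were then split at 3000 UMIs into low-RNA and full-depth barcodes. The cut falls within a continuous range: of 560 MSM-gated barcodes, 130 held 2000 to 3000 UMIs and 93 held 3000 to 4500. The low-RNA gate had 366 barcodes (243, 30, 82 and 11 in unimmunized mice 1 and 2 and immunized mice 1 and 2) and a library in every mouse. The full-depth gate had libraries in unimmunized mice 1 and 2 and immunized mouse 1 (93, 10 and 82 barcodes). The summed level of the MSM markers was 5210 to 7668 CPM in low-RNA MSM-like libraries and 656 to 3307 CPM in full-depth ones, against at most 189 CPM in any other gate. These markers defined the gate, so the contrast with other gates was set by the gating. The need for at least 2 of them also raises their CPM in barcodes under 3000 UMIs.

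Low-RNA MSM-like cells had a high nuclear-encoded and a middling mitochondria-encoded share, so that their ratio was low in 3 of 4 mice. Nuclear members held 3.47 and 3.87% of UMIs in unimmunized mice 1 and 2, and 4.22 and 4.71% in immunized mice 1 and 2. In each mouse this share was above every gate outside the MSM gates, of which there were 12, 9, 15 and 13 with a library, and whose highest values were 2.52, 2.80, 2.88 and 3.11%. The mitochondria-encoded share in the same order was 4.83, 2.65, 3.12 and 3.21%, inside the range of the other gates. The ratio was 1.39 in unimmunized mouse 1 and 0.686, 0.738 and 0.681 in unimmunized mouse 2 and immunized mice 1 and 2. In the last 3 mice the ratio was below every gate outside the MSM gates, but in unimmunized mouse 1, which held 243 of the 366 barcodes, 5 of 12 such gates lay lower.

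Full-depth MSM-like cells had ratios of 1.12, 0.622 and 0.458 in unimmunized mice 1 and 2 and immunized mouse 1. These lay below every gate outside the MSM gates in the same mouse. Their nuclear-encoded share was 2.84, 2.75 and 3.99%, and their mitochondria-encoded share 3.20, 1.71 and 1.83%.

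Gene by gene, the rise in low-RNA MSM-like cells was in nuclear members. In the comparison with the mean of all other gates, each weighted equally, 47 of 81 nuclear members were higher and none lower at an adjusted p under 0.05 (edgeR quasi-likelihood test). Of all genes tested, 26.9% passed, 14.3% higher and 12.6% lower. Of the 13 mitochondria-encoded genes, mt-Co1 was lower and none was higher. The median log2 fold change was 0.42 over the nuclear members, -0.12 over the mitochondria-encoded genes and -0.21 over all genes. The nuclear members that were higher were 22 of 37 tested in complex I, 3 of 4 in complex II, 4 of 8 in complex III, 10 of 15 in complex IV and 8 of 17 in complex V.

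The counts fell without immunized mouse 1: far fewer nuclear members were higher, with a median of all genes at -1.77. The immunized low-RNA group was then only the library of immunized mouse 2, with 11 barcodes and 21127 UMIs. In the full fit the scaling factor (TMM) of that library was 1.71, against 1.03 to 1.22 in the other low-RNA libraries. The part of this scaling in the lost calls was not tested. With the counts scaled to total UMIs alone, 60 nuclear members were higher, and the medians were 0.66 for nuclear members, 0.04 for mitochondria-encoded genes and -0.03 for all genes, so the sign of the mitochondria-encoded median turned.

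The member that differed most was Cox4i2, the less common isoform of cytochrome oxidase subunit 4, which is known from lung and from oxygen-sensing cells (chromosome 2, 152754173 to 152765037, + strand, GRCm38). Its level in low-RNA MSM-like cells was 752 and 501 CPM in unimmunized mice 1 and 2 and 910 and 1609 CPM in immunized mice 1 and 2. In full-depth MSM-like cells it was 192, 64.0 and 449.5 CPM in unimmunized mice 1 and 2 and immunized mouse 1. In the 49 libraries of the other gates Cox4i2 ran from 0 to 64.9 CPM with a median of 3.06 CPM, and 15 of these libraries held no Cox4i2 UMI. No low-RNA MSM-like library overlapped any library outside the MSM gates, and the highest of the latter was that of C1q-high macrophages in unimmunized mouse 1.

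The fitted log2 fold change of Cox4i2 was 7.77 ± 0.244 (SE) against the other gates (adjusted p = 4.86e-28, edgeR) and ran from 7.50 to 8.53 over 20 alternative settings, in all of which it passed. Because some libraries held no UMI, this fold depends on the prior count of the fit and is no bound. Against full-depth MSM-like cells Cox4i2 was the only member that passed, at 1.36 ± 0.300 (adjusted p = 0.00481). That call was lost in 6 of 20 settings, with either capture alone, with the depth limit divided by 1.5, with stricter gates, with libraries of at least 25 barcodes and without unimmunized mouse 1, and the fold ran from 0.81 to 1.86.

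The share of barcodes with a Cox4i2 UMI showed the same contrast. In low-RNA MSM-like cells it was 67.9, 53.3, 74.4 and 81.8% of barcodes in unimmunized mice 1 and 2 and immunized mice 1 and 2, at medians of 1570 to 2244 UMIs per barcode. In gamma-delta T cells, taken as cells that should lack it, the share was 0 to 3.51% at medians of 6008 to 7737 UMIs. C1q-high macrophages lay between, at 30.8 and 20% in unimmunized mice 1 and 2 and 10.8 and 4.5% in immunized mice 1 and 2. The C1q-high gate allowed 1 MSM marker per barcode, and its summed MSM markers reached 189 CPM, the highest outside the MSM gates. The part of MSM-like barcodes in the Cox4i2 of C1q-high macrophages was not tested. The medians of C1q-high macrophages were 7487 to 14130 UMIs per barcode. After each barcode was thinned to 1000 UMIs, which left out 7 low-RNA barcodes of unimmunized mouse 1, the shares were 54.7, 40, 52.4 and 81.8% in low-RNA MSM-like cells and 0 to 0.555% in gamma-delta T cells. In C1q-high macrophages the thinned shares were 11.5 and 0% in unimmunized mice 1 and 2 and 3.2 and 0.627% in immunized mice 1 and 2. The full-depth barcodes, thinned in the same way, stood at 18.3, 20 and 32.9% in unimmunized mice 1 and 2 and immunized mouse 1.

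Cox4i1, the common isoform of the same subunit (chromosome 8, 120668222 to 120674207, + strand), did not show this pattern. It stood at 856, 1336, 1153 and 1278 CPM in low-RNA MSM-like cells, inside or just above the 721 to 1250 CPM of the other gates, and did not pass the test. Of the UMIs of both isoforms, Cox4i2 held 46.8, 27.3, 44.1 and 55.7% in low-RNA MSM-like cells of unimmunized mice 1 and 2 and immunized mice 1 and 2. In full-depth MSM-like cells it held 14.1, 5.41 and 25.6%, and in C1q-high macrophages at most 4.94%.

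**Figure D2:**
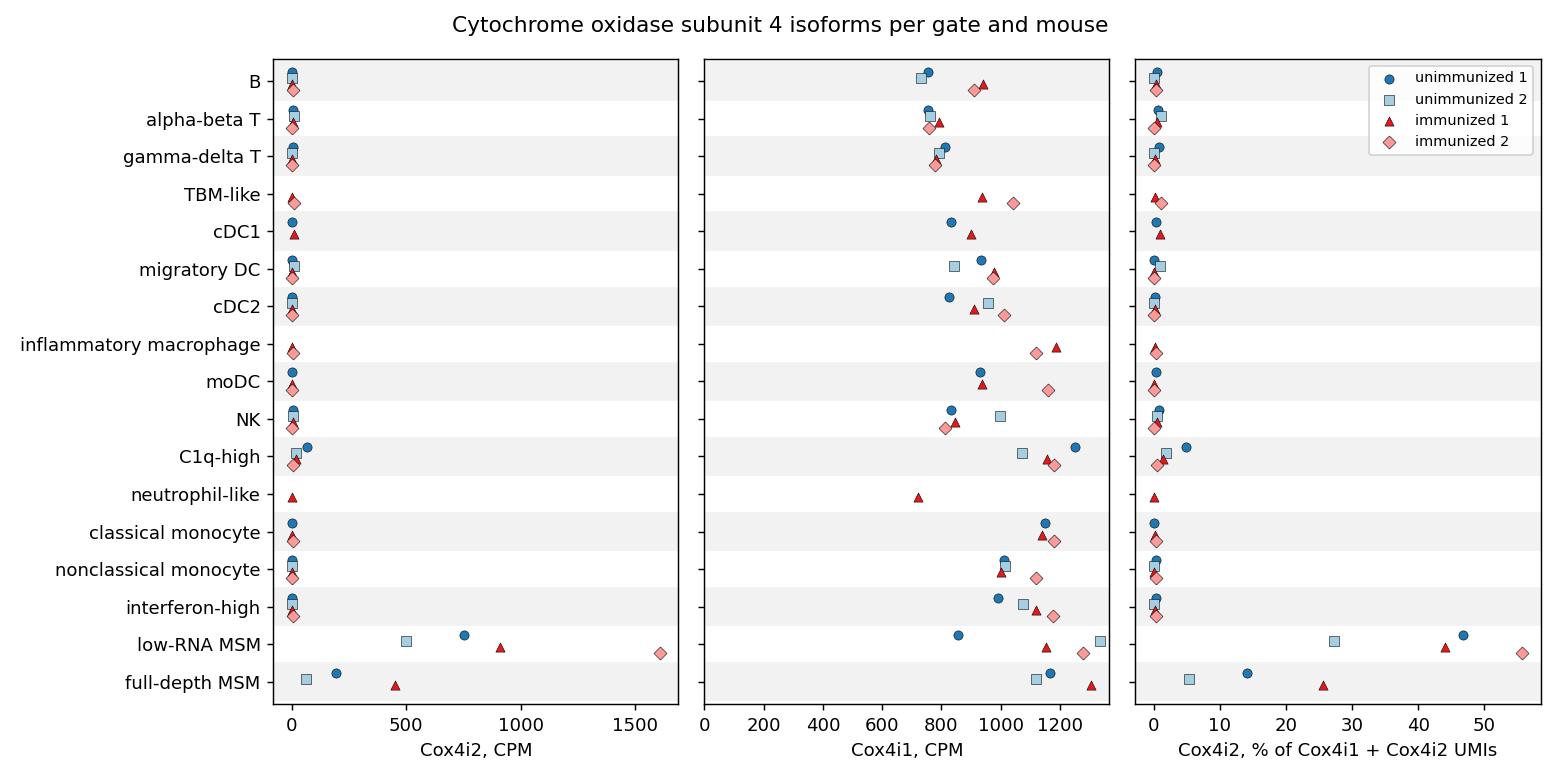
Cox4i2 (left) and Cox4i1 (middle) in CPM, and Cox4i2 as a percentage of the UMIs of both isoforms (right), with 1 point per mouse and gate. The 4 low-RNA MSM-like libraries hold 501 to 1609 CPM of Cox4i2, against at most 64.9 CPM outside the MSM gates, whereas Cox4i1 is present in every gate.

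Cox5a, the nuclear subunit that binds subunit 4 in cytochrome oxidase, was also high. It stood at 1907, 2121, 2069 and 2319 CPM in low-RNA MSM-like cells and at 1057, 928 and 1961 CPM in full-depth ones, against 284 to 967.5 CPM in the other gates. The log2 fold change of Cox5a was 1.64 ± 0.113 (adjusted p = 8.43e-16), and it passed in all 20 alternative settings. Each low-RNA MSM-like library lay above every library of the gates outside MSM.

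Subunits of the other complexes had smaller rises. Uqcr11, a small subunit of complex III, held 859, 818, 1058 and 1609 CPM in low-RNA MSM-like cells and 655, 496 and 893 CPM in full-depth ones, with a log2 fold change of 1.55 ± 0.114 (adjusted p = 5.62e-15). Ndufv3, an accessory subunit of the NADH-oxidizing module of complex I, held 364, 417.5, 594.5 and 709.99 CPM, with a log2 fold change of 1.40 ± 0.160 (adjusted p = 1.94e-09). Sdhc, a membrane anchor of complex II, held 97.0, 150.3, 160.5 and 237 CPM against at most 75.3 CPM in the other gates, with a log2 fold change of 1.29 ± 0.182 (adjusted p = 2.58e-07). These genes, like Cox5a, showed no overlap between low-RNA MSM-like libraries and the libraries of gates outside MSM. They are members with large fold changes, and the share of all genes without such overlap was not counted. The lack of overlap is therefore not a result about the respiratory chain genes as a group.

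Among the other nuclear members, Ndufa9 (1.19), Ndufc1 (1.19) and Ndufab1 (1.10) of complex I, Uqcr10 (0.91) and Uqcrq (0.85) of complex III, and Atp5mpl (0.88), Atp5j (0.87), Atp5k (0.65) and Atp5g3 (0.63) of ATP synthase were also higher on the log2 scale. Of the 3 genes for the c subunit, which forms the rotating ring of ATP synthase, Atp5g1 (0.45) and Atp5g3 (0.63) passed and Atp5g2 did not. In complex IV, Cox7a2 (0.76), Cox7a2l (0.66), Cox8a (0.60), Cox6a1 (0.56) and Cox6c (0.55) were higher, and Cox6a1 turned to -0.18 without immunized mouse 1. Cox6a2, the muscle isoform of subunit 6A, passed at 3.78 ± 0.905 (adjusted p = 0.00123) on 7 UMIs in all, 3 in unimmunized mouse 1 and 4 in immunized mouse 1, with 0 in the other mice, and lost the call with DESeq2 and without unimmunized mouse 1.

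mt-Co1, the catalytic core of cytochrome oxidase, was the mitochondria-encoded gene that was lower. It held 6123, 3206, 4001 and 4686 CPM in low-RNA MSM-like cells against 3681 to 10540 CPM in the other gates, so the ranges overlapped. Of the mitochondria-encoded UMIs alone, mt-Co1 held 12.7, 12.1, 12.8 and 14.6% in these cells, against a median of 17.5% over all libraries. In full-depth MSM-like cells it held 16.8, 17.9 and 15.7% in unimmunized mice 1 and 2 and immunized mouse 1. The log2 fold change of mt-Co1 was -0.75 ± 0.142 (adjusted p = 5.18e-05), and it passed in all 20 alternative settings. For the other 12 mitochondria-encoded genes the fold changes ran from -1.22 to 0.09.

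**Figure D3:**
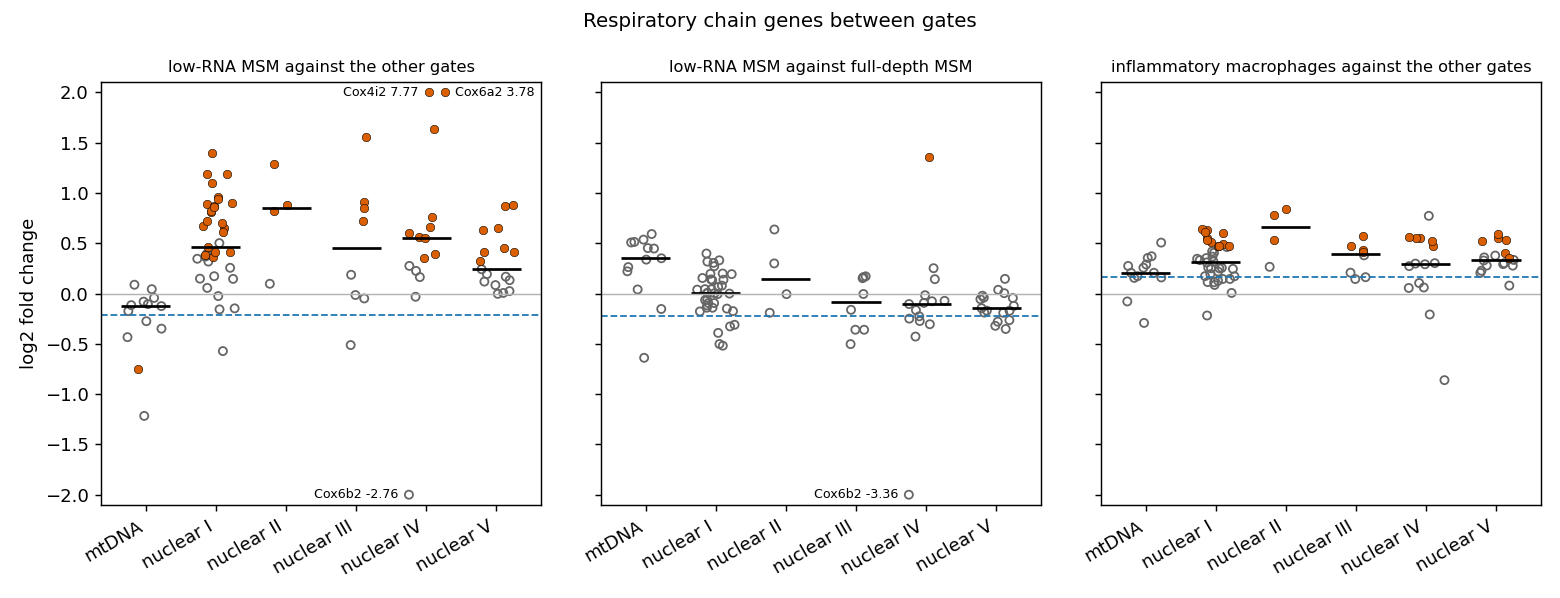
Log2 fold change of each tested member by genome and complex, for low-RNA MSM-like cells against the other gates (left) and against full-depth MSM-like cells (middle), and for inflammatory macrophages against the other gates of full depth (right). Filled points have an adjusted p under 0.05, black bars are medians of a class, the dashed line is the median of all genes, and members outside the axis are drawn at its edge with their value. In the left panel 47 nuclear members are filled, and in the middle panel 1.

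Between low-RNA and full-depth MSM-like cells Cox4i2 was the only member that passed. Both shares of UMIs were nevertheless higher in the low-RNA gate of each mouse with both libraries. The mitochondria-encoded share was 4.83 against 3.20%, 2.65 against 1.71% and 3.12 against 1.83% in unimmunized mice 1 and 2 and immunized mouse 1. The nuclear-encoded share was 3.47 against 2.84%, 3.87 against 2.75% and 4.22 against 3.99%. Of 81 nuclear members 1 was higher, against 3.22% of all genes tested that passed (0.454% higher and 2.76% lower), and of the 13 mitochondria-encoded genes none passed. The median log2 fold change was 0.35 over the mitochondria-encoded genes, of which 11 of 13 lay above 0, and -0.06 over the nuclear members, against -0.22 over all genes. With DESeq2 5 mitochondria-encoded genes were higher, beside 44 higher and 218 lower of the 2928 genes to which it gave an adjusted p.

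Within the MSM gate the mitochondria-encoded share changed with depth. In unimmunized mouse 1 it was 5.37% in barcodes under 1500 UMIs, 4.17% at 2000 to 3000, 2.90% at 4500 to 7000 and 3.42% at 7000 and above. In immunized mouse 1 the values at these depths were 5.28, 2.67, 1.08 and 2.55%. The lowest share was thus not at the highest depth in either mouse. Cox4i2 stood at 858 CPM in the shallowest and 76.6 CPM in the deepest bin of unimmunized mouse 1. In immunized mouse 1 it stood at 768 and 104 CPM in these bins, with its highest value, 970 CPM, at 1500 to 2000 UMIs. The TBM-like gate did not exclude MSM markers, so barcodes that met both gates were left out. Deeper barcodes can meet more gates, so this loss may grow with depth. Its part in these trends and in the contrast of low-RNA with full-depth barcodes was not tested.

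**Figure D4:**
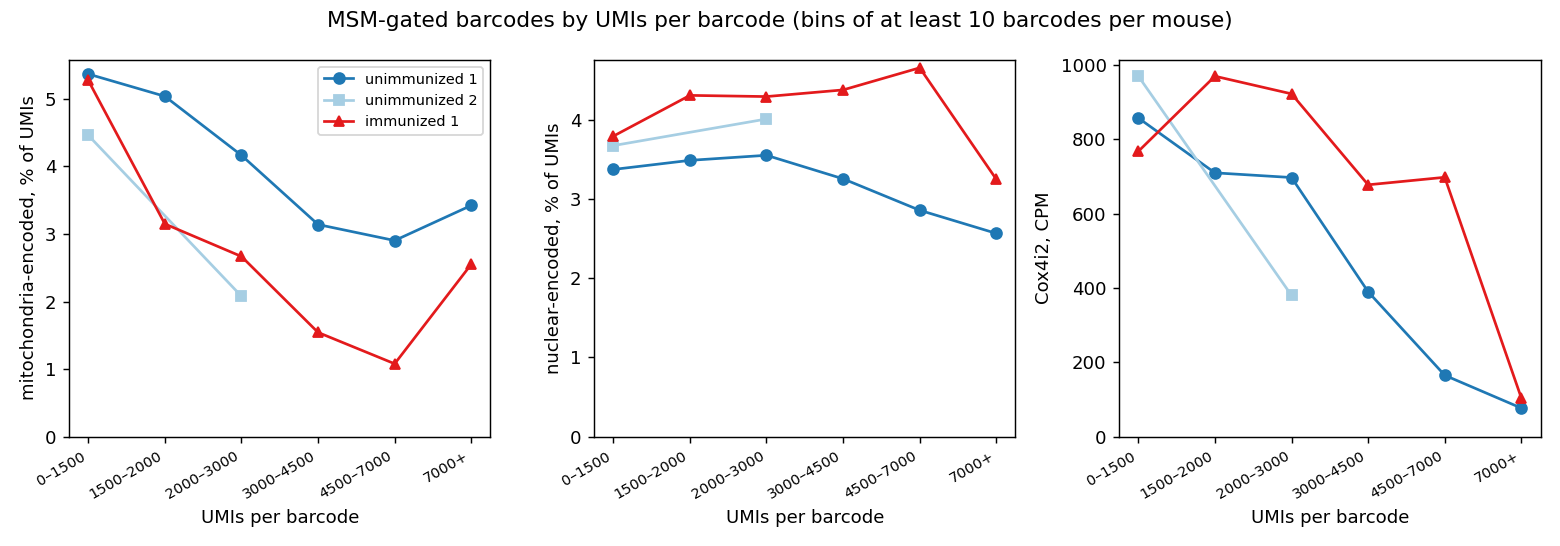
Mitochondria-encoded share (left), nuclear-encoded share (middle) and Cox4i2 in CPM (right) of MSM-gated barcodes, in bins of UMIs per barcode with at least 10 barcodes in a mouse. The mitochondria-encoded share falls from 5.37 to 2.90% in unimmunized mouse 1 and from 5.28 to 1.08% in immunized mouse 1 up to 7000 UMIs, and in both mice Cox4i2 is lowest at 7000 UMIs and above. Immunized mouse 2 has no bin of 10 barcodes.

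Markers of other cells and of RNA composition moved with the MSM gates. Malat1, an RNA retained in the nucleus, stood at 189 to 944 CPM in low-RNA, 2640 to 7905 CPM in full-depth and 7599 to 56213 CPM in the other gates. All 3 tested genes of the list of nuclear-retained RNA were lower in low-RNA MSM-like cells than in the other gates, with a median log2 fold change of -5.09. The summed classical monocyte markers (6 genes) stood at 94.7 to 388 CPM in low-RNA and 477 to 1056 CPM in full-depth MSM-like cells. Erythroid markers (5 genes) stood at 0 to 2.43 CPM in low-RNA MSM-like cells. Stromal or endothelial markers stood at 47.6 to 237 CPM in low-RNA and 25.3 to 96.0 CPM in full-depth MSM-like cells. Outside the MSM gates they reached at most 116 CPM, in B cells. The C1q-high markers (5 genes) stood at 8520 to 10345 CPM in low-RNA and 3504 to 6310 CPM in full-depth MSM-like cells, against 3762 to 6129 CPM in the C1q-high gate itself. The TBM-like markers (10 genes, among them the C1q genes) stood at 3373 to 4781 and 1152 to 3115 CPM in the MSM gates, against 10726 to 13329 CPM in the TBM-like gate. In the low-RNA libraries of unimmunized mouse 2 and immunized mouse 2, Mertk, Itga9, C3ar1 and Stab1 of this list were at 0. The part of cell integrity, depth and other cells in the differences of the respiratory chain genes was not tested.

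Other genes of mitochondrial function were described with lists. In low-RNA MSM-like cells against the other gates, 28 of 78 mitochondrial ribosomal protein genes were higher and 1 lower, with a median of 0.52, beside the 14.3% of all genes that were higher. Of the list of uncoupling and antioxidant genes 5 of 6 were higher, among them Gpx4 (1.16), which reduces lipid peroxides, Prdx5 (0.96), Txn2 (0.94) and Ucp2 (0.72). Of 29 tested assembly factors 5 were higher, namely Cox14, Cox19, Cox20, Ndufaf8 and Sdhaf4, a share near that of all genes. Of 14 genes of mitochondrial DNA expression Lrpprc (1.32) and Slirp (0.86), which together stabilize mitochondrial mRNA, were higher and Polg (-3.74) lower. The share that was higher on this list was near that of all genes. Of 14 carriers and import genes 4 were higher, with Vdac1, the outer membrane channel, at 1.13, of 13 tricarboxylic acid cycle genes 2 were higher (Idh3g and Ogdh), also near the share of all genes, and of 7 biogenesis regulators none passed. Of the same lists, Polg and the 3 nuclear-retained RNAs were lower than in full-depth MSM-like cells, and no other listed gene passed in that comparison.

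Inflammatory macrophages were gated on Nos2 or Acod1 with at least 2 of these, Arg1, Il1b, Cxcl3 and Inhba. With edgeR they had a broad but smaller rise in nuclear members, of which few passed with DESeq2. Libraries came from the 2 immunized mice, and the comparison was with the other gates without low-RNA MSM. That mean weighted lymphoid, dendritic and neutrophil-like gates equally with the macrophage and monocyte gates. In immunized mice 1 and 2 the nuclear-encoded share was 2.84 and 3.03% in inflammatory and 2.88 and 3.06% in C1q-high macrophages. It was 2.69 and 3.11% in classical monocytes, 2.59 and 3.02% in interferon-high cells and 2.35 and 2.86% in TBM-like cells. The rise was thus not particular to this gate. Of 81 nuclear members 29 were higher and none lower, against 16.4% of all genes tested that passed (14.2% higher and 2.22% lower), and of the 13 mitochondria-encoded genes none passed. The nuclear members that were higher were 11 in complex I, 3 in complex II, 4 in complex III, 5 in complex IV and 6 in complex V. Their median log2 fold change was 0.33 over all nuclear members, against 0.16 over all genes.

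The leading members were complex II genes. Sdhb, the iron-sulfur subunit that passes electrons from succinate on, held 234 and 231 CPM in immunized mice 1 and 2, with a log2 fold change of 0.78 ± 0.140 (adjusted p = 2.97e-05) that passed in all 20 alternative settings. Sdhd, a membrane anchor, held 144.9 and 148 CPM, with a log2 fold change of 0.84 ± 0.156 (adjusted p = 5.63e-05). Other myeloid gates of these mice had similar levels. Complex II genes summed to 547 and 563 CPM in inflammatory and 518 and 553 CPM in C1q-high macrophages. They summed to 466 and 580 CPM in classical monocytes and 506 and 540 CPM in TBM-like cells. Outside the MSM gates Sdhb was highest in classical monocytes (239.7 CPM) and Sdhd in C1q-high macrophages (171.9 CPM). Sdhc rose by 0.54 and Sdha, the catalytic flavoprotein, did not pass. In complex I, Ndufa5 (0.64), Ndufc1 (0.63) and Ndufc2 (0.61) were higher, in complex III Uqcrb (0.57), in complex IV Cox8a (0.57), Cox5b (0.55) and Cox6b1 (0.55), and in complex V Atp5b, the catalytic beta subunit (0.59).

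Around the chain, Cycs (0.69), the mobile carrier between complexes III and IV, Cyc1 (0.64), the cytochrome c1 subunit of complex III, and the channels Vdac1, Vdac2 and Vdac3 were higher, 5 of 14 on their list, beside the 14.2% of all genes that were higher. Idh3b (0.94) and Dld (0.54) of the tricarboxylic acid cycle were higher. So were Ppargc1b (1.53) and Esrra (0.76) among 7 regulators of mitochondrial biogenesis, and Sod2 (2.63) and Prdx5 (2.13) among 6 antioxidant and uncoupling genes. Mitochondrial ribosomal proteins (2 of 78) gave few calls, and no assembly factor of 29 and no gene of mitochondrial DNA expression of 14 passed with edgeR. Leaving out immunized mouse 1 turned the count of 29 members into 7, and leaving out immunized mouse 2 into 2. DESeq2 called 6.

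TBM-like cells showed few differences. Of 81 nuclear members 4 were higher and 1 was lower, against 14.0% of all genes tested that passed (11.9% higher and 2.12% lower), while none of the 13 mitochondria-encoded genes passed. Ndufc2 (0.74), Sdhd (0.58), Sdhc (0.57) and Cox5a (0.48) were higher on the log2 scale. Cox7a2l was lower, at 311 and 313 CPM in immunized mice 1 and 2 (log2 fold change -0.59 ± 0.188, adjusted p = 0.0277). In low-RNA MSM-like cells the same gene stood at 696, 968.5, 945 and 663 CPM. The TBM-like count of 5 became 1 without either immunized mouse and 8 without either unimmunized mouse.

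On the lists, TBM-like cells were higher in Sco2 (1.21), a copper chaperone of cytochrome oxidase, and Ppargc1b (1.47), and lower in Sdhaf1 (-0.84), an assembly factor of complex II. Of 78 mitochondrial ribosomal protein genes 1 was higher, beside 11.9% of all genes.

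Promoters of nuclear members were searched for motifs known from respiratory genes. RefSeq promoters (GRCm38.p6, 250 bases before to 50 after the start) were matched for 68 of 86 nuclear members. The ETS core CCGGAAG, bound by GABPA among others, was present on either strand in 16 of 68 (23.5%), against 9.12% of 27025 promoters. The palindromic NRF1 motif of 10 bases was present in 5 (7.35% against 0.977%) and the YY1 motif AAGATGGC in 8 (11.8% against 2.88%), and matches of different motifs overlapped in 0 promoters. The promoters of Sdhb, Sdhd and Uqcr11 are shown, 5′ to 3′ along the gene, as members with leading changes that hold an ETS match. Capitals mark the match, which in Sdhd reads as the reverse complement.

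Sdhb, chr4:140961021-140961320, + strand: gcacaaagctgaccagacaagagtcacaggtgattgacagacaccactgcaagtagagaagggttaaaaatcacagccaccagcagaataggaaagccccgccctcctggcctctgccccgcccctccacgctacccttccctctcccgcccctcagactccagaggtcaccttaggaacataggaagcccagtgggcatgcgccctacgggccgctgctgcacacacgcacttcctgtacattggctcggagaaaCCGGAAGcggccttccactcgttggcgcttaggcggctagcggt
Sdhd, chr9:50603800-50604099, - strand: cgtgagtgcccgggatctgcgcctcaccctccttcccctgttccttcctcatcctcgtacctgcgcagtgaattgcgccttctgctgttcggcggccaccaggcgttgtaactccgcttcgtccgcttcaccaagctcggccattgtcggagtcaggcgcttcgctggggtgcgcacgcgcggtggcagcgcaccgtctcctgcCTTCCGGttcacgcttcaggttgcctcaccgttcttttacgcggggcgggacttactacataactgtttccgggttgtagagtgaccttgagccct
Uqcr11, chr10:80406772-80407071, - strand: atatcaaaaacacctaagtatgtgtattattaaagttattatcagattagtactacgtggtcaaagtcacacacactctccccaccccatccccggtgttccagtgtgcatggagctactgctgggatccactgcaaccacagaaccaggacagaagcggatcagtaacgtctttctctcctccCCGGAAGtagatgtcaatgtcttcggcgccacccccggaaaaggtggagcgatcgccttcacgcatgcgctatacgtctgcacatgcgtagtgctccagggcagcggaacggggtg

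Of the 37 matched members that were higher in low-RNA MSM-like cells 10 held the ETS core, and of the 28 matched members that did not pass 6 did. For YY1 the counts were 6 of 37 and 2 of 28, and for NRF1 2 of 37 and 3 of 28. A match describes letters and was not tested as a site. The promoters of Cox4i1 and Cox4i2 were not matched.

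Nuclear members were higher in immunized mice in the mean over gates, with few calls within single gates. Over the 13 gates with libraries in at least 3 mice, 58 of 81 nuclear members were higher and none lower in this mean. Within single gates no member passed with edgeR in 12 of the 13, and 2 did in full-depth MSM-like cells. Of all genes tested 6.99% passed, 5.44% higher and 1.55% lower. This background depended on the scaling: 563 genes were higher and 161 lower, but 240 and 490 with DESeq2 size factors and 276 and 441 with total UMIs, while 32 and 36 nuclear members were higher under these and none lower. Of the mitochondria-encoded genes mt-Cytb (0.39 ± 0.0793, adjusted p = 0.000950) and mt-Nd4l (0.32 ± 0.0915, adjusted p = 0.0238) were higher, and the call of mt-Nd4l was lost in 12 of 20 alternative settings, that of mt-Cytb in 1. The median log2 fold change was 0.29 over the nuclear members, 0.14 over the mitochondria-encoded genes and 0.03 over all genes. Without immunized mouse 1 or 2 the count of 60 members became 13 or 20. Without unimmunized mouse 1 the median of all genes was 0.71, above the 0.33 of the nuclear members, with 434 genes higher and 4 lower. By complex the nuclear members that were higher were 26 of 37, 1 of 4, 6 of 8, 10 of 15 and 15 of 17 in complexes I to V.

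The count of 60 treats libraries of 1 mouse as independent. With 1 library per mouse, 2 mice against 2, none of 82 nuclear and none of 13 mitochondria-encoded members passed with edgeR, and none of 12722 genes did. At an unadjusted p under 0.05 there were 57 nuclear members, 1 mitochondria-encoded gene and 3776 genes in all, and 80 of the 82 nuclear members lay above 0 with a median of 0.52. Each of these libraries summed all gated barcodes of a mouse, so the mix of cell types entered this comparison. Gamma-delta T cells gave 541 barcodes in unimmunized mouse 1 and 23 in immunized mouse 2, and inflammatory macrophages gave 9 and 738. The part of this mix in the values was not tested.

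The leading members of the mean over gates were Cox7b (0.54 ± 0.0713, adjusted p = 1.24e-06), a small subunit of cytochrome oxidase, Sdhb (0.53 ± 0.0763, adjusted p = 6.74e-06) and Ndufs4 (0.53 ± 0.0760, adjusted p = 6.59e-06), a complex I subunit needed for its stability. In low-RNA MSM-like cells Cox7b held 374 and 200.4 CPM without and 541 and 852 CPM with immunization. In C1q-high macrophages it held 335 and 311 CPM against 383 and 444 CPM. Both gates showed Cox7b higher in each immunized mouse. Other members with rises were Atp5j (0.45) and Atp5c1 (0.40) of ATP synthase, Ndufs3 (0.45) and Ndufv2 (0.41) of complex I, Cox7a2 (0.41) and Cox5a (0.39) of complex IV and Uqcrc1 (0.32) of complex III. Cox4i1 rose by 0.20.

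In the shares of UMIs, the nuclear-encoded share was higher in every immunized mouse than in every unimmunized one in 11 of 14 gates with both conditions, and the mitochondria-encoded share in 6 of 14. In interferon-high cells the nuclear-encoded share was 2.15 to 2.26% without and 2.59 to 3.02% with immunization, and the mitochondria-encoded share 2.46 to 2.52% and 3.28 to 3.37%. In gamma-delta T cells the nuclear-encoded share was 2.15 to 2.16% and 2.32 to 2.35%. In B cells it was 1.86 to 2.01% and 2.13 to 2.21%, whereas their mitochondria-encoded share overlapped, at 6.14 to 6.28% and 5.74 to 6.64%. Nonclassical monocytes, moDCs (monocyte-derived dendritic cells) and cDC2s (conventional dendritic cells of type 2) were the gates whose nuclear-encoded shares overlapped between conditions. The gates share the same 4 mice, so their counts are not independent. Full-depth MSM-like cells, classical monocytes, moDCs and cDC1s (conventional dendritic cells of type 1) had 1 mouse in at least 1 condition. How many gates would separate by chance was not tested. Depth also differed: the median UMIs per kept barcode were 5877 and 6280 in unimmunized mice 1 and 2 and 9674 and 12727.5 in immunized mice 1 and 2. In B cells they were 3222 and 3148 against 6915.5 and 4541.5. In NK cells they overlapped, at 5322 and 5096 against 5081 and 6310.5. The part of depth in these shares was not tested.

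In the MSM gates the medians of the genomes had opposite signs, with few calls and with mitochondria-encoded shares that overlapped between conditions. In low-RNA MSM-like cells, 56 of 81 nuclear members lay above 0 with a median of 0.16, and the mitochondria-encoded genes all lay below 0 with a median of -0.54, against -0.22 over all genes. No member passed, and 0.0% of all genes tested were called with edgeR, with 4 members and 602 genes at an unadjusted p under 0.05. DESeq2 called none and gave 232 genes at that limit. The low-RNA library of immunized mouse 2 had a scaling factor (TMM) of 1.71, and its part in these medians was not tested. The mitochondria-encoded share of unimmunized mouse 1, 4.83%, was above and that of unimmunized mouse 2, 2.65%, below both immunized mice, so the conditions overlapped.

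In full-depth MSM-like cells, with 1 immunized mouse, 80 of 81 nuclear members lay above 0 with a median of 0.65, and 2 passed, both higher, against 0.444% of all genes tested that passed and 0.116% that were higher. These were Cox5a, at 1057 and 928 CPM in unimmunized mice 1 and 2 and 1961 CPM in immunized mouse 1 (1.10 ± 0.272, adjusted p = 0.0465), and Atp5j, the coupling factor F6 of ATP synthase, at 378 and 416 CPM against 743 CPM (1.06 ± 0.261, adjusted p = 0.0460). The median of the mitochondria-encoded genes was -0.38, but their share in immunized mouse 1, 1.83%, lay between those of unimmunized mice 1 and 2, 3.20 and 1.71%, so the conditions overlapped. The spread of the lone immunized library was assumed to be that of the other groups, and the call of Cox5a was lost in 15 and that of Atp5j in 17 of 18 alternative settings, among them either unimmunized mouse left out.

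**Figure D5:**
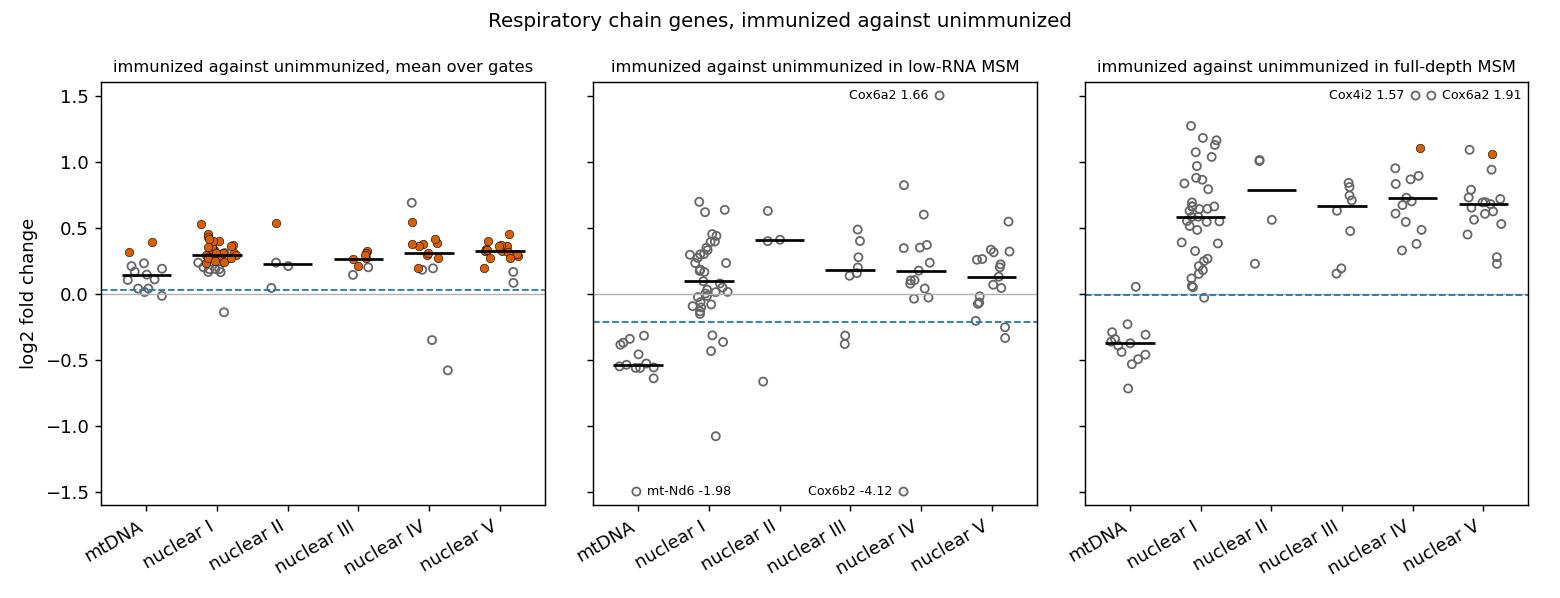
Log2 fold change of each tested member in immunized against unimmunized mice, for the mean over 13 gates (left), low-RNA MSM-like cells (middle) and full-depth MSM-like cells (right), by genome and complex. Filled points have an adjusted p under 0.05 (60 in the left, 0 in the middle and 2 in the right panel), black bars are medians of a class and the dashed line is the median of all genes. In both MSM panels the mitochondria-encoded genes have medians below 0 (-0.54 and -0.38).

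The difference between the immunization response of low-RNA MSM-like cells and its mean over the other gates was tested as an interaction. No member passed and 0.0% of all genes were called with edgeR, with 9 members and 575 genes at an unadjusted p under 0.05, and DESeq2 called none with 176 genes at that limit. All 13 mitochondria-encoded genes lay below 0, with a median of -0.71, against -0.15 over the nuclear members and -0.35 over all genes.

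On the lists, beside the 5.44% of all genes that were higher, immunized mice were higher in 18 of 78 mitochondrial ribosomal protein genes, in Vdac1, Vdac2 and Vdac3 (3 of 14), in Fh1, Mdh2 and Suclg1 of the tricarboxylic acid cycle (3 of 13), in Prdx5 (0.85) and Sod2 (0.66) of 6 antioxidant and uncoupling genes, in Cox14 and Cox19 of 29 assembly factors, and in Mterf4, Slirp and Ssbp1 of 14 genes of mitochondrial DNA expression. Of 7 biogenesis regulators none passed, with edgeR as the tool. The lists share mice and libraries with the members, and with 1 library per mouse none of 12722 genes passed with edgeR, 3776 of them at an unadjusted p under 0.05.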

How the data were processed

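Reads were aligned and UMIs counted by the authors with Cell Ranger 4.0.0 (count and aggr, mm10), and the deposited values are whole UMI counts for each gene in each barcode. Hashtag and antibody counts were made by the authors with CITE-seq-count and deposited as whole counts. Reads that match several genes equally are not counted by this tool, so members with near-identical pseudogene copies are uncertain. For the equalizing of reads between captures by aggr, the setting was not given in the sources used here.

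Sequences found in both captures (621, or 1242 of 18662 barcodes) were left out. A barcode was assigned to a mouse when 1 hashtag held at least 80% of hashtag counts and at least 10 counts, and barcodes with over 25% mitochondrial UMIs were removed, as in the study. Gates required several markers, and barcodes that met more than 1 gate were left out, which was the treatment of doublets together with the hashtags. UMIs were summed per mouse and gate and fitted with edgeR 4.0.16 (R 4.3.3, TMM, filterByExpr, quasi-likelihood, Benjamini-Hochberg at 0.05 over 10357 genes). Libraries of 1 mouse were treated as independent, and a fit with a block per mouse was tried as well. Each mouse is 1 animal, so the mouse pairs its gates by design. The deviations of libraries of the same mouse correlated with a median r of 0.033 over 91 pairs of gates in immunized and 0.027 over 55 pairs in unimmunized mice. The values ran from -0.040 to 0.487 in immunized and from -0.020 to 0.084 in unimmunized mice. They were taken over all genes tested, those of low counts included, and do not show that the libraries of a mouse are independent. DESeq2 1.42.0, other scaling, HTODemux of Seurat 5.3.0 and other gates and limits were also tried, and 1 library per mouse was added after the data were seen. The fits were also run on simulated counts with a common dispersion and no effect of the mouse. Such counts cannot show how the calls fare when libraries share a mouse.

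Named genes were all mitochondria-encoded members, the 2 nuclear members of highest mean CPM in each complex, the tissue isoforms and their partners, the c subunit genes and the 3 largest rises and falls in each comparison. Other members named in the text were picked after their values were seen. The members and lists were chosen with earlier results of these data known, and the thresholds of the gates were set after the counts had been seen. Each condition had 2 animals, and the smallest library held 21127 UMIs. Values of some single genes are not reported here.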

Additional observations from a re-analysis of the deposited data

Results flagged for a closer look

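The ratio of mitochondria-encoded to nuclear-encoded UMIs in low-RNA MSM-like cells was 1.391 in unimmunized mouse 1, against 0.681 to 0.738 in the other 3 mice. The gap to the nearest value, divided by the range, was 0.920 and exceeded Dixon's limit of 0.829 for 4 samples. These 4 samples pool both conditions. Of 30 groups of 4 mice tested in this way 1 passed, and chance gives about 1 in 20.

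Barcodes over the mitochondrial limit of 25% were not used in any comparison. They made up 8.771% of the assigned barcodes of immunized mouse 2 (454 of 5176) and 1.603% of those of immunized mouse 1 (66 of 4118), against 0.563% (16 of 2844) and 0.739% (4 of 541) in unimmunized mice 1 and 2. Their median mitochondria-encoded share was 62.1% in immunized mouse 2 and 34.7 to 43.3% in the other mice, and 419 of the 454 met no gate. The nuclear-encoded respiratory chain genes held 0.865% of their UMIs in immunized mouse 2. With no limit on the mitochondria-encoded share the count of members called in the immunization mean was 60, as with it. This count could hardly change, since 493 of the 540 barcodes over the limit met no gate. Another 27 were inflammatory macrophages, a gate that is not part of that mean.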

How the results depend on the processing

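Of 257 alternative values of counts and levels, 200 kept within 1.5 times the reported count or within 1 SD of the reported level, and 57 did not. Of the alternative values of single genes, 888 kept direction and side of the threshold, 360 kept direction only and 3 turned: in low-RNA MSM-like cells against the other gates, Cox6a1 was -0.18 and Ndufa4 -0.025 without immunized mouse 1 (with a mouse left out they ran up to 0.67 and 0.37), and Ndufc2 was -0.53 with the depth limit divided by 1.5. The causes were not tested.

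For low-RNA against full-depth MSM-like cells the count of members called, 1, was 3 with DESeq2 size factors, 9 with total UMIs, 6 with DESeq2, 3 with the depth limit divided by 1.5, and 0 with capture 1, capture 2, stricter gates or libraries of at least 25 barcodes, and 0 to 2 with a mouse left out. For low-RNA MSM-like cells against the other gates, 48 became 29 with capture 1, 30 with capture 2, 28 with the depth limit divided by 1.5 and 9 to 45 with a mouse left out. For inflammatory macrophages, 29 became 13 with DESeq2 size factors, 6 with DESeq2, 18 with HTODemux, 8 with a hashtag share of 95%, 4 with capture 2, 17 with stricter gates and 2 to 28 with a mouse left out. For TBM-like cells, 5 became 9 with total UMIs, 3 with DESeq2, 2 with HTODemux, 1 with capture 2, 2 with stricter gates and 1 to 8 with a mouse left out. For the immunization mean, 60 became 33 with DESeq2 size factors, 37 with total UMIs, 31 with DESeq2, 16 with a hashtag share of 95%, 15 with capture 1, 30 with capture 2, 0 with 1 library per mouse and 13 to 54 with a mouse left out. Immunization in low-RNA MSM-like cells gave 0 to 1 and its interaction 0 to 4 with a mouse left out. In full-depth MSM-like cells the 2 calls for immunization became 0 with DESeq2 size factors, total UMIs, mitochondrial genes left out of the scaling, DESeq2, a mitochondrial share of at most 10%, HTODemux, a hashtag share of 95%, either capture, the depth limit divided or multiplied by 1.5, stricter gates, and with either unimmunized mouse left out. Any difference among gates gave 89 members, and 56 to 83 with a mouse left out. The mean mitochondria-encoded share of low-RNA MSM-like cells was 3.45%, and 4.43% with the depth limit divided by 1.5.

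With the mouse as a block, the counts of members called were 1, 49, 31, 5, 0 and 90 in place of 1, 48, 29, 5, 0 and 89 for low-RNA against full-depth MSM, low-RNA MSM against the other gates, inflammatory macrophages, TBM-like cells, the interaction and any difference. The block could not be fitted to the immunization comparisons, since each mouse has 1 condition. Libraries of 11 to 30 barcodes, as in low-RNA MSM of immunized mouse 2 and unimmunized mouse 2, limit what could be detected there.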

Other observations

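Cox6b2, the testis isoform of cytochrome oxidase subunit 6B, was highest in cDC2s and in some libraries of moDCs and migratory DCs. It held 33.8 and 29.7 CPM in cDC2s of unimmunized mice 1 and 2 and 28.6 and 23.3 CPM in those of immunized mice 1 and 2. In moDCs it held 33.7, 40.1 and 0 CPM in unimmunized mouse 1 and immunized mice 1 and 2, and in migratory DCs 4.75 to 25.8 CPM. In cDC1s it held 0 and 9.04 CPM (0 and 2 UMIs) in unimmunized and immunized mouse 1, beside 0 to 12.5 CPM in classical monocytes and 3.16 to 12.8 CPM in interferon-high cells. In the 4 low-RNA MSM-like libraries Cox6b2 held 1 UMI in all, and in NK, B and T cell libraries at most 7.10 CPM. It differed among gates (adjusted p = 1.03e-06, edgeR quasi-likelihood F test). Its common partner Cox6b1 was present in every gate, at 262 to 899 CPM.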
